A study of Mus musculus with 4 samples.

Results

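The 33 genes described here are type I interferon-stimulated genes, taken by symbol from the 31053 genes counted in sorted mouse lung CD4 T cells. All 33 symbols were present in both libraries. Their UMIs (unique molecular identifiers, each counting 1 captured transcript) were summed over groups of cells and per cell, to compare tumor-bearing with normal lung and to see how the difference was spread over cells. The mice were C57BL/6. The tumor group had received TC1 cells, a transplantable tumor line, by tail vein 3 weeks earlier, and the other group was age-matched mice with normal lungs. Live CD4+ T cells were sorted from each tissue, and each suspension gave 1 gene expression library and 1 T cell receptor library. The number of mice behind a suspension is not given by the labels. With 1 library per tissue there is no replicate and no test, and batch and tissue cannot be told apart.

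Kept cells were split by whether at least 1 UMI of Foxp3, the lineage factor of regulatory T cells (Tregs), and of Ccr7, the lymph node homing receptor of naive and central memory T cells, was found. The Foxp3+ Ccr7- group held 746 tumor and 31 normal cells, and the Foxp3+ Ccr7+ group held 401 and 175. The Foxp3- Ccr7- group held 1139 tumor and 682 normal cells, and the Foxp3- Ccr7+ group held 4849 and 6194. The Foxp3- groups also hold Tregs in which no Foxp3 UMI was captured, and the Ccr7- groups hold cells in which Ccr7 was missed. The normal Foxp3+ Ccr7- group is small, so its values carry the widest intervals.

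Type I interferons bind the receptor made of Ifnar1 and Ifnar2, whose kinases Jak1 and Tyk2 activate the transcription factors of the pathway. Stat2 and Irf9 are part of the complex ISGF3, which binds the interferon-stimulated response element (ISRE), a motif with a repeated GAAA core, in front of target genes. The products restrict viral replication, sense foreign nucleic acid and feed back on the pathway, and type II interferon can induce part of the same set through the GAS motif.

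The upstream sequences of 5 members are shown because the ISRE letters lie in 4 of them and are missing from that of Ifi209, which stood apart from the rest in the counts. They are RefSeq's GRCm38.p6 sequence, 5′ to 3′ on each gene's own strand, and capitals mark every match to the ISRE letters, GAAA, any 2 bases and GAAA, on either strand (TTTC, any 2 bases and TTTC where they lie on the other strand). Ifit1 and Ifit3 were taken by a rule, as members at least 4-fold higher in tumor in every group where they could be compared, and the others were chosen after their values were seen. Ifi204 also met the rule, but no window was given for it. The stretches are chr19:34640769-34640888 (+) for Ifit1, chr19:34583363-34583482 (+) for Ifit3, chr19:34607759-34607878 (+) for Ifit3b, chr4:156200819-156200938 (-) for Isg15 and chr1:173630739-173630858 (+) for Ifi209.
Ifit1: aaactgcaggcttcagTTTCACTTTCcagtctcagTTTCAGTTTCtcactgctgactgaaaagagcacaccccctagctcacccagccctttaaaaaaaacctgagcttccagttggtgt
Ifit3: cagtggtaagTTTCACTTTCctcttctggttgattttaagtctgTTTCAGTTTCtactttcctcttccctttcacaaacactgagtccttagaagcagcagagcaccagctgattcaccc
Ifit3b: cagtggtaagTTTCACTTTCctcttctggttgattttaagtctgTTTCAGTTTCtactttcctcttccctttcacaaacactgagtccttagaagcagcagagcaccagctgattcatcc
Isg15: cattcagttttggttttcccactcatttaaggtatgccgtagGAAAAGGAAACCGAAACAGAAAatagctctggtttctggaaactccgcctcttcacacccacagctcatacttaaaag
Ifi209: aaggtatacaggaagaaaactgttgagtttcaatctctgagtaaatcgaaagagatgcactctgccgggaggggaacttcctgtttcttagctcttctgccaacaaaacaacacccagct

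In Ifit1 and in Ifit3 the letters occurred at 2 separate places, and in Isg15 at 3 places that overlap one another. The Ifit3 and Ifit3b stretches were identical at 119 of 120 bases, and reads of these near copies may have been shared or dropped in counting, so their separate values are uncertain. RefSeq's gene records of Ifit3 and Ifit3b begin further upstream than the start site used here, so their stretches lie within the record. A promoter window, 250 bases before to 50 after the start, was given for 24 of the 33 members, and 15 of the 24 (62.5%) held the ISRE letters, against 1079 of 27025 genes (3.99%). The interferon-gamma motif TTCNNNGAA, a GAS, was in the windows of Bst2, Ifit2, Isg20 and Oas1a, 16.7% of the 24, against 2582 genes (9.55%). In Bst2 the 2 motifs overlap. A match describes letters only, and the 9 windows without the ISRE letters (Herc6, Ifi209, Ifit2, Irf7, Irf9, Isg20, Oasl1, Oasl2 and Ube2l6) may hold other forms of the element.

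Members with the letters had the higher median tumor to normal ratio in 3 of the 4 groups of cells. In Foxp3- Ccr7+ cells the median was 2.57 for the 15 members with the letters and 2.13 for the 9 without. It was 5.10 and 3.39 in Foxp3+ Ccr7+ cells for the same 15 and 9, and 2.98 and 1.84 in Foxp3+ Ccr7- cells for the 13 and 8 that could be compared, with lower bounds taken at the bound. The order was the opposite in Foxp3- Ccr7- cells, 4.51 with the letters and 6.21 without. Members without the letters ran widely, from 1.64 to 15.5 in Foxp3- Ccr7- and from 1.01 to 5.16 in Foxp3- Ccr7+ cells. Ifi209 was the lowest of them each time. The members lie on 13 chromosomes. The 5 IFIT genes share 112.4 kb of chromosome 19 (34550550 to 34662981) and the 4 Ifi200 genes share 346.8 kb of chromosome 1 (173566280 to 173913087), so each family lies in 1 cluster, and the annotated span of Ifit1bl1 overlaps those of Ifit3b and Ifit1.

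The tumor library kept 7135 cells with 31921001 UMIs and the normal library kept 7082 cells with 28084248. Median depth was 4173 and 3906 UMIs per cell, and within groups tumor cells were deeper, most so among Foxp3+ Ccr7+ cells (5223 against 4003). The libraries shared 74 cell barcodes, 1.04% of tumor and 1.05% of normal cells. Summed markers of T cells lay between 3278 and 4281 CPM, the UMIs of a gene or list scaled to a common total of 1000000 UMIs, in all 8 library and group combinations. Erythroid markers were at 0, and 3 of 4 neutrophil markers or more were at 0 throughout. The 5 plasmacytoid dendritic cell markers summed to 81.4 CPM in tumor and 16.2 CPM in normal Foxp3+ Ccr7- cells, 62.6 and 9.02 CPM in Foxp3+ Ccr7+, 51.0 and 32.5 CPM in Foxp3- Ccr7- and 6.39 and 3.28 CPM in Foxp3- Ccr7+ cells. Of these, Siglech, the marker that defines the cell type, was at 0 in all 8 combinations. Epithelial markers summed to 49.5 CPM in tumor and 8.08 CPM in normal Foxp3+ Ccr7- cells and to 19.9 and 2.58 CPM in Foxp3+ Ccr7+ cells. The part of both lists in the results was not tested. Intervals in square brackets are 95% intervals that cover counting error only and treat the UMIs of 1 cell as independent, which they are not.

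Nearly all members were higher in the tumor library in each group of cells. A gene was compared when at least 5 UMIs were expected in the smaller of the paired sums, and it was called higher or lower at a 1.5-fold ratio of CPM. Among Foxp3- Ccr7+ cells 31 of 33 members were higher, against 9.1% of all 12132 genes compared, with a median ratio of 2.56. All 33 were higher among Foxp3- Ccr7- cells, against 11% of all genes, with a median ratio of 5.60. In the Foxp3+ Ccr7+ group 31 of 32 were higher, against 25.4% of all genes, with a median of 5.05. In the Foxp3+ Ccr7- group 26 of 28 were higher, against 25% of all genes, and 1 was lower, against 11.1%, with a median of 2.92. Tumor cells gave 3697457 UMIs of this group and normal cells 123797, so genes there were compared mainly by their tumor level. Of the 28 members 4 had no normal UMI and were called higher by a lower bound. A filter on the mean CPM, given in the closing section, compared fewer members.

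Over all genes compared, the median log2 ratio was 0.029 in Foxp3- Ccr7+ cells, -0.014 in Foxp3- Ccr7- cells, 0.17 in Foxp3+ Ccr7+ cells and 0.11 in Foxp3+ Ccr7- cells. Over genes with enough UMIs in both libraries, the median log2 ratio was -0.13 in Foxp3+ Ccr7- cells. Scaling by the median of ratios divides by it and would raise log2 ratios there. In the other 3 groups it would shift them by less than 0.1. The intervals of 16 of the 28 members lay above 1 in Foxp3+ Ccr7- cells and that of 1 lay below, where 31 normal cells set their width. Of the 33 members, 30 were higher in every group where they were compared. The exceptions were Irf9, Ddx58 and Ifi209. Ifit1bl1, Oasl1, Oas2, Ifi204 and Ifi211 could not be compared in Foxp3+ Ccr7- cells, and Ifi204 also not in Foxp3+ Ccr7+ cells.

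**Figure D1:**
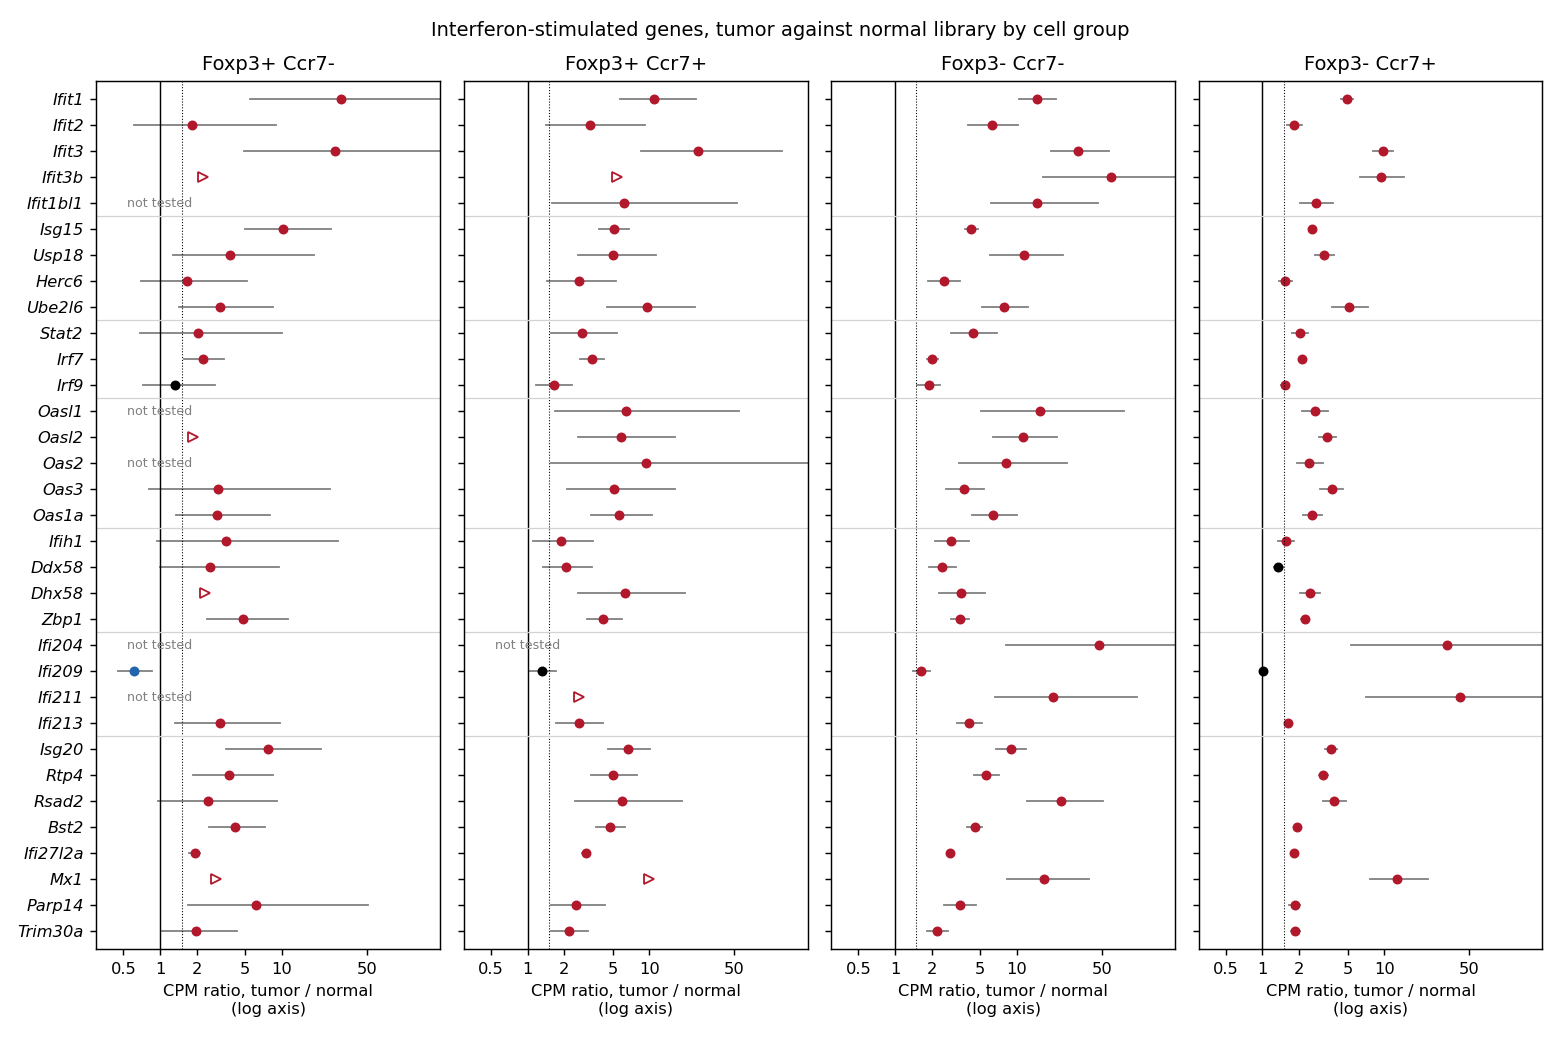
Ratio of tumor to normal CPM (log axis) of each member in the 4 groups of cells, with 95% counting intervals cut off at the axis ends. Red points are at least 1.5-fold higher in tumor (dotted line), blue at least 1.5-fold lower and black neither, and open triangles are lower bounds where the normal sum was 0. Nearly all points lie right of 1, and Ifi209 is the 1 blue point, at 0.613 in Foxp3+ Ccr7- cells.

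The IFIT genes, whose products bind foreign RNA and block its translation, had the largest median ratio of any role in 3 of the 4 groups, all but Foxp3- Ccr7+ cells, where the Ifi200 genes had 7.30. All 5 were higher in each group where they were compared, with median ratios of 4.94 in Foxp3- Ccr7+, 14.8 in Foxp3- Ccr7-, 6.15 in Foxp3+ Ccr7+ and 7.85 in Foxp3+ Ccr7- cells. Ifit1, whose protein recognises RNA caps that lack host methylation, stood at 66.5 CPM in tumor and 13.5 CPM in normal Foxp3- Ccr7+ cells, a ratio of 4.94 [4.38 to 5.58]. In Foxp3- Ccr7- cells Ifit1 was at 208 and 14.2 CPM, a ratio of 14.6 [10.5 to 21.2]. The Foxp3+ Ccr7+ values were 127 and 11.6 CPM, a ratio of 11 [5.70 to 24.2]. Foxp3+ Ccr7- cells held 909 tumor UMIs and 1 normal UMI of Ifit1, a ratio of 30.4 [5.45 to 1203]. The normal level of Ifit1 thus lay between 8.08 and 14.2 CPM in all 4 groups, and the tumor level between 66.5 and 246 CPM, with no overlap.

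Ifit3, which binds and stabilises the Ifit1 protein, was at 46.0 CPM in tumor and 4.73 CPM in normal Foxp3- Ccr7+ cells, a ratio of 9.73 [8.02 to 11.9]. In Foxp3- Ccr7- cells it was at 195 and 6.09 CPM, a ratio of 32 [19.3 to 57.4]. Its ratio was 25.2 [8.53 to 123] in Foxp3+ Ccr7+ cells and 27.5 [4.91 to 1086] in Foxp3+ Ccr7- cells. The near copy Ifit3b followed it, with 219 tumor UMIs against 27 normal UMIs in Foxp3- Ccr7+ cells (a ratio of 9.43) and 219 against 2 in Foxp3- Ccr7- cells (a ratio of 60 [16.4 to 499]). Normal Foxp3+ cells held no Ifit3b UMI, so tumor was at least 5.47-fold higher with Ccr7 and at least 2.24-fold higher without, where 3 counts stood for 0. Ifit2, another RNA-binding member of the family, had the smallest family ratio in Foxp3- Ccr7+ cells, 1.83 [1.58 to 2.11], and reached 6.21 in Foxp3- Ccr7- cells. Ifit1bl1, a paralog of Ifit1, had ratios from 2.78 to 14.8 in the 3 groups compared.

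The ISG15 system comprises the ubiquitin-like protein Isg15, the conjugating enzyme Ube2l6, the ligase Herc6 and the protease Usp18, which removes Isg15 and also restrains the interferon receptor. All 4 genes were higher in tumor in all 4 groups. Isg15 was at 128 CPM in tumor and 50 CPM in normal Foxp3- Ccr7+ cells, a ratio of 2.56 [2.40 to 2.74]. It was at 474 and 112 CPM in Foxp3- Ccr7- cells, a ratio of 4.23 [3.73 to 4.81], and at 349 and 68.3 CPM in Foxp3+ Ccr7+ cells, a ratio of 5.10 [3.87 to 6.87]. In Foxp3+ Ccr7- cells Isg15 stood at 580 against 56.5 CPM, a ratio of 10.3 [4.97 to 25.5]. The tumor values thus spanned 128 to 580 CPM over the groups, and the normal values 50 to 112 CPM, with no overlap.

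Ube2l6 was at 8.98 CPM in tumor and 1.74 CPM in normal Foxp3- Ccr7+ cells, a ratio of 5.16 [3.69 to 7.37]. In the other groups its tumor level was between 76.3 and 151 CPM and its normal level between 9.02 and 48.5 CPM, so Foxp3- Ccr7+ cells had its lowest level in both tissues. Usp18 had a ratio of 3.22 [2.69 to 3.88] in Foxp3- Ccr7+ cells (21.3 and 6.59 CPM) and 11.4 [6.08 to 24.1] in Foxp3- Ccr7- cells (46.3 and 4.06 CPM). Herc6 had the smallest ratios of the 4, from 1.54 to 2.65.

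Of the transcription factors of the pathway, Irf7, which drives late interferon production and is itself induced, was at 218 CPM in tumor and 102 CPM in normal Foxp3- Ccr7+ cells, a ratio of 2.13 [2.03 to 2.24]. Its values were 408 and 201 CPM in Foxp3- Ccr7- cells (2.03 [1.84 to 2.25]), 380 and 112 CPM in Foxp3+ Ccr7+ cells (3.39 [2.72 to 4.27]) and 528 and 234 CPM in Foxp3+ Ccr7- cells (2.25 [1.56 to 3.37]). Irf7 was thus higher in Ccr7- than in Ccr7+ cells of both tissues. Irf9, the DNA-binding part of ISGF3, had the smallest ratios of the 3 factors, 1.54 in Foxp3- Ccr7+, 1.89 in Foxp3- Ccr7- and 1.64 in Foxp3+ Ccr7+ cells. In Foxp3+ Ccr7- cells Irf9 was at 108 and 80.8 CPM, a ratio of 1.34 [0.719 to 2.81] that did not reach 1.5. Stat2, the other partner of Irf9 in ISGF3, had ratios from 2.03 to 4.38 and was higher in all 4 groups.

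The 5 members of the OAS family, which make or resemble enzymes that make 2′-5′ oligoadenylates to activate RNase L, were higher wherever they were compared. Their median ratio was 2.70 in Foxp3- Ccr7+, 8.22 in Foxp3- Ccr7-, 5.83 in Foxp3+ Ccr7+ and 2.94 in Foxp3+ Ccr7- cells. Oasl2, an OAS-like protein, was at 26.3 CPM in tumor and 7.69 CPM in normal Foxp3- Ccr7+ cells, and at 59.2 and 5.28 CPM in Foxp3- Ccr7- cells. Normal Foxp3+ Ccr7- cells held no UMI of Oasl2, against 167 in tumor. Oas1a was at 18.5 and 7.20 CPM in Foxp3- Ccr7+ cells but at 142 and 48.5 CPM in Foxp3+ Ccr7- cells, so its level was higher among Foxp3+ cells in both tissues. Oas3 had ratios from 2.98 to 5.17. Oas2 and Oasl1 had ratios from 2.43 to 15.5 over the 3 groups in which they were compared.

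Among the sensors of nucleic acid, Ifih1 (MDA5) and Ddx58 (RIG-I) detect viral RNA, Dhx58 (LGP2) modulates them, and Zbp1 binds Z-form nucleic acid. Zbp1 was at 106 CPM in tumor and 47.5 CPM in normal Foxp3- Ccr7+ cells, a ratio of 2.24 [2.09 to 2.41], and at 220 and 64.6 CPM in Foxp3- Ccr7- cells, a ratio of 3.40 [2.87 to 4.05]. Its ratio was 4.20 in Foxp3+ Ccr7+ and 4.82 in Foxp3+ Ccr7- cells. Ddx58 was at 51.4 and 38.1 CPM in Foxp3- Ccr7+ cells, a ratio of 1.35 [1.23 to 1.47] that fell short of 1.5, and it was higher in the other 3 groups, with ratios from 2.08 to 2.59. Ifih1 had ratios from 1.55 to 3.47. Dhx58 had ratios from 2.47 to 6.31 in 3 groups and held no UMI in normal Foxp3+ Ccr7- cells, against 210 in tumor.

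The Ifi200 genes code for proteins of the family that binds DNA in the nucleus and cytosol, and they were the least uniform set. Ifi204 and Ifi211 were almost absent from normal cells. Foxp3- Ccr7- cells held 86 tumor UMIs and 1 normal UMI of Ifi204, a ratio of 47.1 [8.24 to 1883], and 108 against 3 UMIs of Ifi211, a ratio of 19.7 [6.57 to 97.2]. Ifi213 was at 87.8 and 53.7 CPM in Foxp3- Ccr7+ cells, a ratio of 1.64 [1.52 to 1.76], and at 137 and 33.7 CPM in Foxp3- Ccr7- cells, a ratio of 4.06 [3.22 to 5.17]. Members of the family have close copies on chromosome 1, and reads may be split among them.

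Ifi209 had the lowest ratio of any member in all 4 groups. In Foxp3- Ccr7+ cells Ifi209 was at 91.8 CPM in tumor and 90.5 CPM in normal, a ratio of 1.01 [0.954 to 1.08]. It was at 140 and 85.7 CPM in Foxp3- Ccr7- cells, a ratio of 1.64 [1.40 to 1.92], and at 136 and 103 CPM in Foxp3+ Ccr7+ cells, a ratio of 1.32 [1.03 to 1.70]. In Foxp3+ Ccr7- cells the direction was the opposite, 203 CPM in tumor and 331 CPM in normal, a ratio of 0.613 [0.448 to 0.862]. That normal value came from 41 UMIs in 20 of 31 cells. After thinning every cell to 2417 UMIs, Ifi209 was found in 18.3% of tumor and 18.6% of normal Foxp3- Ccr7+ cells (28.8% and 27.9% unthinned), so its shares of cells were close as well. In Foxp3+ Ccr7- cells the thinned shares were 30.3% and 62.1% (43.2% and 64.5% unthinned).

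All 8 remaining effectors were higher in all 4 groups, with median ratios of 2.48 in Foxp3- Ccr7+, 5.02 in Foxp3- Ccr7-, 4.89 in Foxp3+ Ccr7+ and 3.26 in Foxp3+ Ccr7- cells. Ifi27l2a, a small hydrophobic protein, gave 71468 tumor and 21986 normal UMIs and so weighed most in sums over members, before Irf7 (9344 and 3134) and Bst2 (8109 and 2352). Ifi27l2a stood at 1319 and 733 CPM in Foxp3- Ccr7+ cells, a ratio of 1.80 [1.77 to 1.83], and at 2764 and 982 CPM in Foxp3- Ccr7- cells, a ratio of 2.82 [2.70 to 2.94]. It was at 4166 and 1389 CPM in Foxp3+ Ccr7+ cells, a ratio of 3.00 [2.82 to 3.20], and at 5608 and 2924 CPM in Foxp3+ Ccr7- cells, a ratio of 1.92 [1.73 to 2.13]. In both tissues its level thus ran in the same order over the 4 groups, lowest in Foxp3- Ccr7+ and highest in Foxp3+ Ccr7- cells.

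Mx1, a dynamin-like GTPase that blocks influenza and related viruses, was at 8.28 CPM in tumor and 0.647 CPM in normal Foxp3- Ccr7+ cells, a ratio of 12.8 [7.66 to 22.9]. Foxp3- Ccr7- cells held 54.5 and 3.25 CPM of Mx1, a ratio of 16.8 [8.38 to 39.3]. Normal Foxp3+ cells held no Mx1 UMI at all, against 95 tumor UMIs with Ccr7 (at least 9.98-fold higher) and 260 without (at least 2.90-fold higher). Rsad2, or viperin, a radical SAM enzyme that makes a chain-terminating nucleotide, was at 18.8 and 4.81 CPM in Foxp3- Ccr7+ cells and at 84.6 and 3.66 CPM in Foxp3- Ccr7- cells, ratios of 3.90 [3.17 to 4.82] and 23.1 [12.1 to 51.0].

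Bst2, or tetherin, which holds budding virus at the cell surface, was at 161 and 83.3 CPM in Foxp3- Ccr7+ cells, a ratio of 1.94 [1.83 to 2.05], and had ratios from 4.13 to 4.77 in the other groups. Isg20, an exonuclease, was at 55.3 and 15.2 CPM in Foxp3- Ccr7+ cells, a ratio of 3.64 [3.24 to 4.10], and had ratios between 6.69 and 8.91 elsewhere. Rtp4, a chaperone-like protein of the receptor transporter family, had ratios of 3.17 in Foxp3- Ccr7+, 5.60 in Foxp3- Ccr7-, 5.02 in Foxp3+ Ccr7+ and 3.67 in Foxp3+ Ccr7- cells. Parp14, an ADP-ribosyltransferase, had ratios from 1.83 to 6.14, and Trim30a, a ubiquitin ligase, from 1.86 to 2.22.

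Over all kept cells the members summed to 4596 CPM in tumor and 1540 CPM in normal, a ratio of 2.98. Part of this came with the makeup of the libraries, since Foxp3+ cells were 16.1% of tumor and 2.91% of normal cells. Weighted to the normal library's makeup, the tumor value was 3336 CPM and the ratio 2.17. Weighted to the tumor library's makeup, the normal value was 1930 CPM and the ratio 2.38. The summed level differed within every group, at 2860 against 1467 CPM in Foxp3- Ccr7+, 6502 against 1917 CPM in Foxp3- Ccr7-, 7330 against 2211 CPM in Foxp3+ Ccr7+ and 10449 against 4419 CPM in Foxp3+ Ccr7- cells. The groups were not alike in makeup between tissues. Naive T cell markers summed to 4179 CPM in tumor and 5298 CPM in normal Foxp3- Ccr7+ cells, 1964 and 2643 CPM in Foxp3- Ccr7-, 2321 and 5221 CPM in Foxp3+ Ccr7+ and 528 and 1616 CPM in Foxp3+ Ccr7- cells. Treg markers, Foxp3 among them, summed to 301 and 195 CPM in Foxp3- Ccr7+, 862 and 333 CPM in Foxp3- Ccr7-, 3838 and 1818 CPM in Foxp3+ Ccr7+ and 5589 and 3611 CPM in Foxp3+ Ccr7- cells. In each group the tumor cells thus had less of the naive and more of the Treg markers, and the part of this in the members' ratios was not tested.

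Within the tumor library the members also differed between groups of cells. In the tumor library 31 of 33 members were at least 1.5-fold higher in Ccr7- than in Ccr7+ cells among Foxp3- cells, against 13.6% of all genes. The median ratio was 2.25, beside 1.08 over all genes, and it ran from 1.12 for Irf9 to 14.5 for Ifi204. In the normal library 6 of 29 members were, against 14.9% of all genes, with a median of 1.06 beside 1.10. Ifit1 was 3.13-fold higher in tumor Ccr7- cells, where its ratio in normal was 1.06, and Rsad2 was 4.51-fold higher, where its ratio in normal was 0.759. Ifi213 was at 1.56 in tumor and at 0.628 [0.497 to 0.784] in normal. Other members had much the same ratio in both libraries, among them Irf7 (1.87 and 1.97) and Oas3 (3.16 and 3.14).

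**Figure D2:**
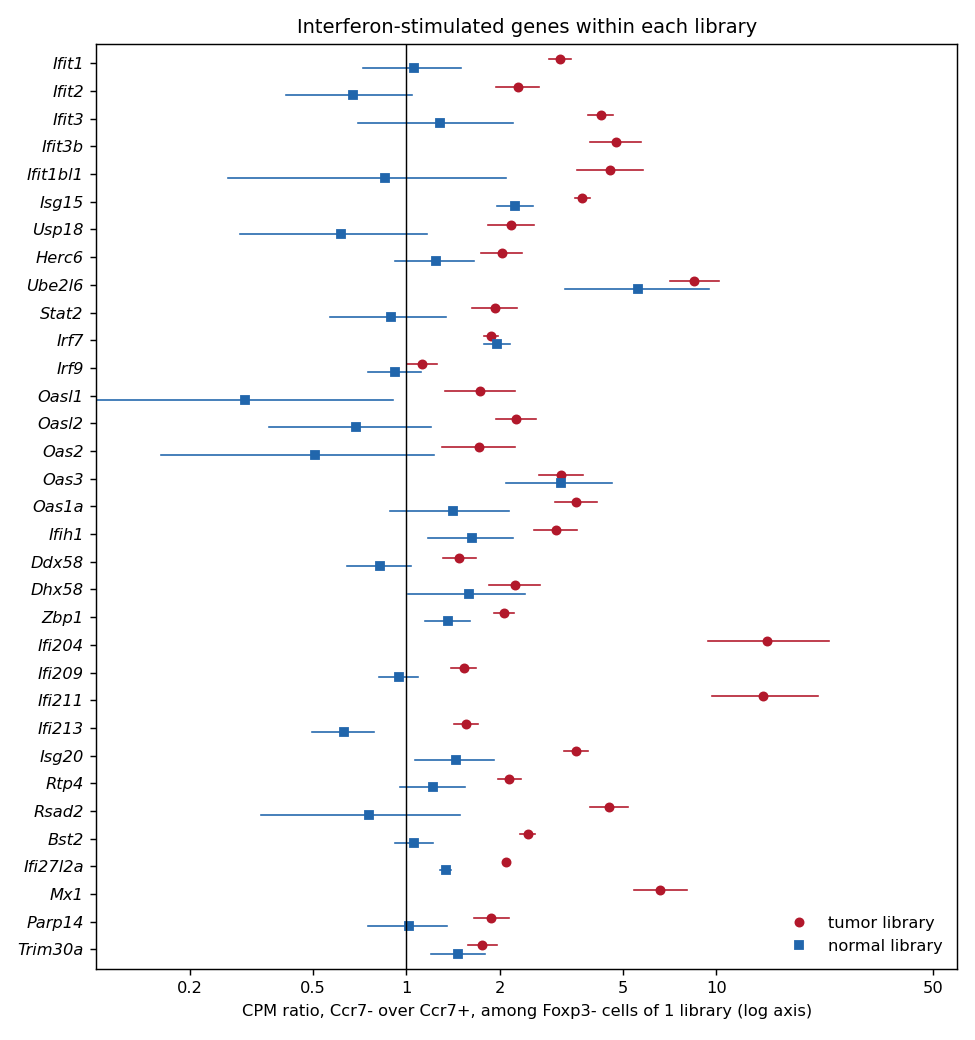
Ratio of CPM in Ccr7- over Ccr7+ cells among Foxp3- cells, for each member in either library, with 95% counting intervals (members with at least 5 expected UMIs). Tumor ratios lie above 1 for all 33 members, and normal ratios scatter around 1, with Ube2l6 highest at 5.60 and Oasl1 lowest at 0.301.

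Among Ccr7+ cells of the tumor library 26 of 32 members were at least 1.5-fold higher in Foxp3+ than in Foxp3- cells, against 24.2% of all genes. The median ratio was 2.03, beside 1.13 over all genes, and the highest was Ube2l6 at 9.54. In the normal library 6 of 22 were, against 10.1% of all genes, with a median of 1.12 beside 1.04. Ube2l6 (5.19), Oas1a (2.51) and Ifi27l2a (1.89) were higher in Foxp3+ cells of the normal library as well. Among Ccr7- cells of the tumor library 7 of 33 members were, against 23.6% of all genes, with a median of 1.22 beside 1.12. In the normal library 4 of 8 were, against 17.1% of all genes, with a median of 1.49 beside 1.02. Tumor Foxp3+ cells had 16 of 33 members at least 1.5-fold higher without Ccr7 than with it, against 10.4% of all genes, with a median of 1.5 beside 1.06. In the normal library 4 of 8 did, against 24.2% of all genes, with a median of 1.55 beside 1.11. The tumor and normal medians of this contrast cover 33 and 8 members, so they are not of the same genes. The normal side rests on 31 Ccr7- cells. In the other contrasts, too, fewer members could be compared in the normal library.

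The tumor to normal ratio was larger in Foxp3- Ccr7- than in Foxp3- Ccr7+ cells for 31 of 33 members, all but Irf7 and Ifi211. It was larger in Foxp3+ Ccr7+ than in Foxp3- Ccr7+ cells for all 29 members that could be put in order. The other 3 of the 32 compared, Ifit3b, Ifi211 and Mx1, have only a lower bound in Foxp3+ Ccr7+ cells. Of the 28 members compared in Foxp3+ Ccr7- cells 24 could be put in order, and Ifit3b, Oasl2, Dhx58 and Mx1 have only a lower bound there. Of the 24, 9 had a larger ratio than in Foxp3+ Ccr7+ cells and 15 a smaller one, and 7 had a larger ratio than in Foxp3- Ccr7- cells and 17 a smaller one. These differences between ratios were not tested.

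To see how the difference was spread over cells, each cell was thinned to 2417 UMIs and its member UMIs were summed. The 393 tumor and 708 normal cells that were shallower were left out. In Foxp3- Ccr7+ cells the mean sum was 6.68 UMIs in tumor and 3.48 in normal, a ratio of 1.92, and the median was 4 and 2. Foxp3- Ccr7- cells had means of 14.3 and 4.74, a ratio of 3.01, and medians of 6 and 3. For Foxp3+ Ccr7+ cells the means were 16.6 and 5.12 (3.24-fold) and the medians 10.5 and 3, and for Foxp3+ Ccr7- cells 24.4 and 11 (2.21-fold) and 16 and 9. The median cell was thus higher in tumor in every group. Cells with no member UMI at all were 5.63% in tumor and 11.9% in normal Foxp3- Ccr7+ cells, and 3.24% and 8.68% in Foxp3- Ccr7- cells.

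A tumor cell drawn at random had a larger sum than a normal cell of its group, ties shared, in 64.9% of pairs for Foxp3- Ccr7+, 69.2% for Foxp3- Ccr7-, 77.7% for Foxp3+ Ccr7+ and 69.3% for Foxp3+ Ccr7- cells. The tails differed more than the medians among Foxp3- cells. The cell at the 99th percentile had 46 UMIs in tumor and 19 in normal among Foxp3- Ccr7+ cells, and 106 and 25.5 among Foxp3- Ccr7- cells. Without the 10% of cells with the highest sums in each library, the ratio of means was 1.78 in Foxp3- Ccr7+, 2.54 in Foxp3- Ccr7-, 3.17 in Foxp3+ Ccr7+ and 1.99 in Foxp3+ Ccr7- cells. The difference was therefore present in the lower 90% of cells of every group and smaller there than over all cells.

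**Figure D3:**
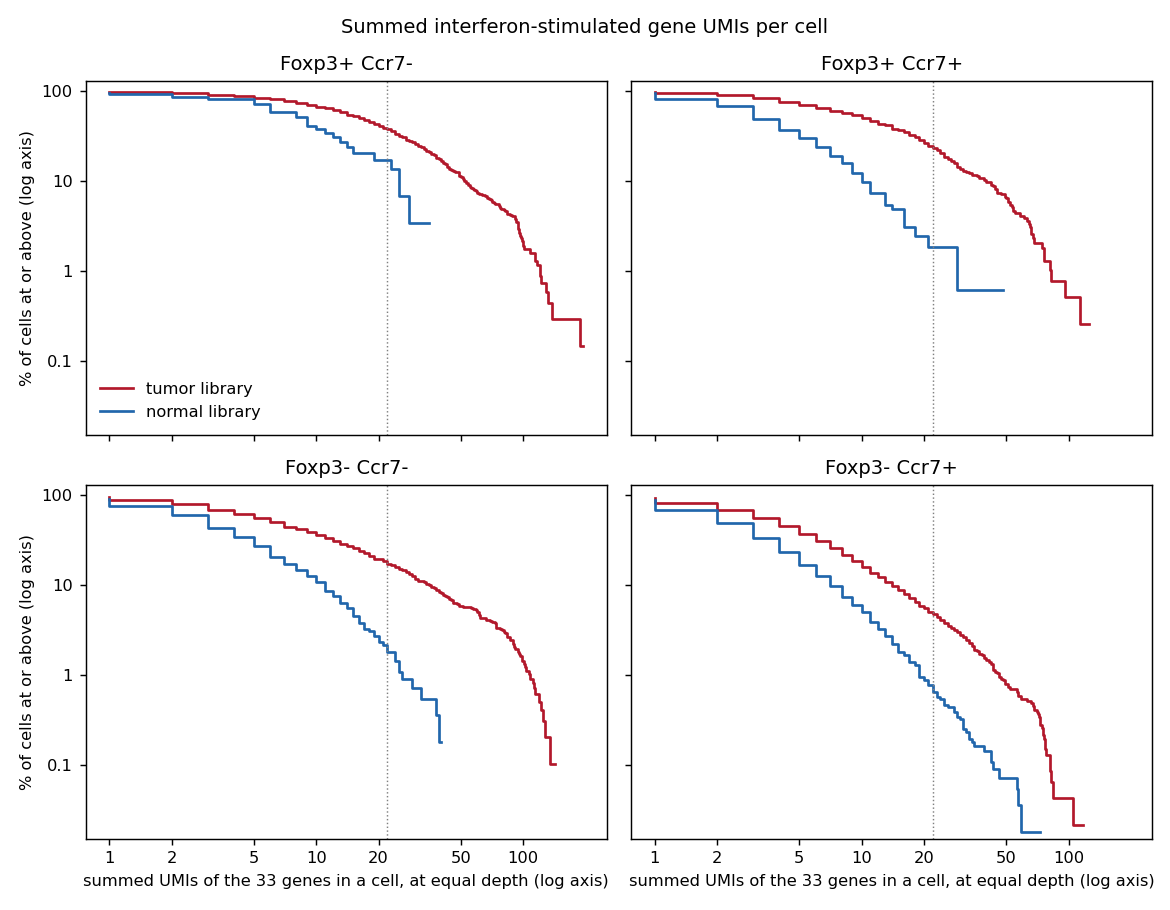
Percent of cells (log axis) whose 33 members sum to at least the number of UMIs on the x axis (log axis), after thinning to 2417 UMIs per cell, for tumor and normal in each of the 4 groups. The tumor curve lies above the normal curve from the lowest sums on, and the dotted line marks the 22 UMIs from which cells are counted as high (5.07% of tumor and 0.764% of normal Foxp3- Ccr7+ cells).

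Cells were then ranked by sum within each library and compared band by band. In Foxp3- Ccr7+ cells the ratio of band means was 1.78 in the lower 50% of cells and also 1.78 from the 50th to the 90th percentile, 2.15 from the 90th to the 99th and 2.23 in the top 1%. The lower 50% held 13.7% of the tumor minus normal difference and 16.3% of the normal library's own sum, and the top 1% held 11.2% and 8.38%. In Foxp3- Ccr7- cells the ratio was 1.97 in the lower 50%, 2.75 in the next band, 3.88 from the 90th to the 99th percentile and 3.51 in the top 1%. There the upper 9% below the top 1% held 42.4% of the difference, against 29.6% of the normal sum. In both Foxp3- groups the sum was thus higher in tumor in every band, with larger ratios in the upper 10%. In Foxp3+ Ccr7+ cells the ratios ran from 2.58 to 3.59 with no steady order over the bands. In Foxp3+ Ccr7- cells they went from 1.81 in the lower 50% to 4.19 in the top 1%, where the normal side rests on 1 of 29 cells.

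Ifi27l2a weighs heavily in these sums, and without it the upper bands differed more. The ratio in Foxp3+ Ccr7- cells became 4.83 from the 90th to the 99th percentile (2.68 with it) and 9.24 in the top 1%, and in the lower bands it was 2.09 and 2.48. In Foxp3+ Ccr7+ cells the 4 ratios were 3.90, 3.57, 5.46 and 2.97 from the lowest band up. They were 2.18, 2.58, 5.16 and 4.40 in Foxp3- Ccr7- cells, and in Foxp3- Ccr7+ cells 1.80, 1.74, 2.60 and 2.72. Counting members with a UMI in place of UMIs gave ratios from 1.66 to 2.70 over the bands of Foxp3- Ccr7- cells and from 1.48 to 1.84 over those of Foxp3- Ccr7+ cells.

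**Figure D4:**
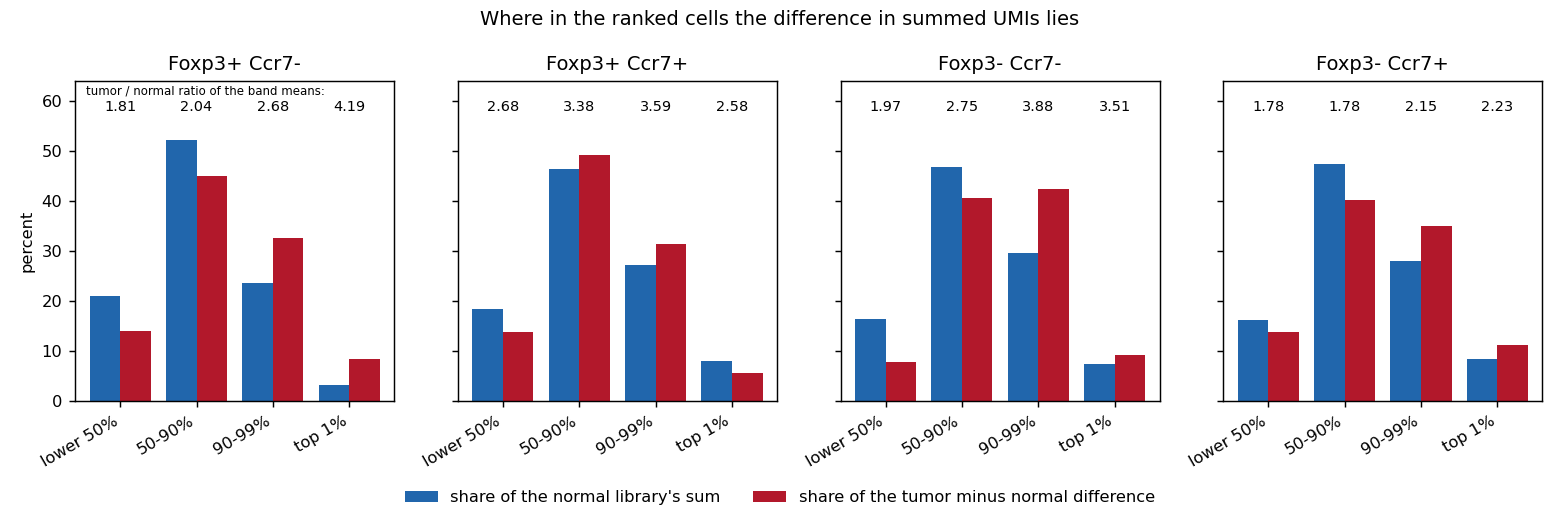
Share (percent) of the normal library's own member sum (blue bars) and of the tumor minus normal difference (red bars) held by 4 bands of cells ranked by sum, in each group. Numbers above the bars are the ratios of band means, and in Foxp3- Ccr7- cells the red bar exceeds the blue bar from the 90th percentile up.

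The members shared in this spread to different degrees. Without the 5% of cells with the highest sums in each library, 27 of the 31 members that could still be compared in Foxp3- Ccr7+ cells had a ratio of at least 1.5, against 8.16% of all genes. Their median was 1.96, beside 1.02 over all genes. In Foxp3- Ccr7- cells 29 of 31 did, against 11.1% of all genes, with a median of 3.37 beside 0.992. In Foxp3+ Ccr7+ cells 24 of 25 did, against 27.1% of all genes, and in Foxp3+ Ccr7- cells 11 of 15, against 24.6%. In the lower 50% of Foxp3- Ccr7+ cells 20 of 28 did, against 7.9% of all genes, with a median of 1.85 beside 1.01. In the lower 50% of the other groups 12 of 18 did in Foxp3- Ccr7- cells, against 11.4% of all genes, 11 of 13 in Foxp3+ Ccr7+ cells, against 26.6%, and 1 of 3 in Foxp3+ Ccr7- cells, against 21.8%. Cells enter that band by their low sums, so this describes what is left there.

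For single members, cells were ranked by the sum of the other 32, so that the member itself did not place the cell. No share of all genes was taken under this ranking, here or for the other groups below, so its counts of members are a description only. In the lower 50% of Foxp3- Ccr7+ cells so ranked, 13 of the 29 members with UMIs in both libraries had a ratio of at least 1.5, and the median was 1.43. Herc6, Ifih1 and Ifi209 were under 1. Of the 4 members left out, Ube2l6 had 0 tumor and 5 normal UMIs, Mx1 0 and 1, Ifi204 1 and 0, and Ifi211 none. Rtp4 had a ratio of 3.96 [2.92 to 5.46] there, Ifit1 2.78 [1.77 to 4.46], Oasl2 2.32, Usp18 2.30 and Ifi27l2a 1.56. Isg15 was at 1.23 and Ifi209 at 0.771 [0.670 to 0.887]. For Isg15 this band held 216 of 1401 tumor and 211 of 675 normal UMIs, so the ranking split tumor and normal UMIs unequally. All ratios in this band, above or under 1, come from this ranking and carry that limit.

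The lower 50% of the other groups was more mixed. Of 25 members in Foxp3- Ccr7- cells 14 had a ratio of at least 1.5, with a median of 1.60, and 7 were under 1. Among these 7 were Irf7 at 0.634 [0.502 to 0.801] and Isg15 at 0.643 [0.448 to 0.924], both with an interval under 1, and the others were Herc6, Oas3, Ifi209, Mx1 and Trim30a. Irf7 and Isg15 were higher in tumor over all cells of that group. Its lower 50% kept 141 of 285 normal and 160 of 952 tumor UMIs of Irf7. For Isg15 it kept 60 of 151 normal and 69 of 997 tumor UMIs. The ranking thus split the UMIs unequally in tumor and normal, and ratios in this band, above or under 1, do not compare like cells. In Foxp3+ Ccr7+ cells 15 of 23 members had a ratio of at least 1.5, with a median of 2.17. Of 11 members in Foxp3+ Ccr7- cells 4 did, with a median of 1.42, and Irf7 at 0.410 [0.241 to 0.750] and Ifi209 at 0.398 had intervals under 1. These rest on 15 normal UMIs of Irf7 and 9 of Ifi209 and carry the same limit.

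At the other end, the top 5% of tumor Foxp3- Ccr7+ cells by the sum of the other members held 86.7% of the UMIs of Mx1, 71.8% of Ifit3b, 68.9% of Ifit3, 62.4% of Ube2l6 and 61.1% of Rsad2. They held 29.3% of Bst2, 26.1% of Irf7, 24.8% of Rtp4, 17.7% of Ifi27l2a and 9.80% of Irf9. Mx1, Ifit3 and Rsad2 transcripts thus sat mostly in few cells that were also high in other members, while those of Irf9 and Ifi27l2a were spread more widely. Normal Foxp3- Ccr7+ cells were alike in this. Outside their top 5% lay 4 of 10 UMIs of Mx1, 19 of 66 of Ifit3 and 28 of 63 of Rsad2. For Rtp4 it was 234 of 348, for Irf9 600 of 689 and for Ifi27l2a 8025 of 9648. The order was similar in tumor Foxp3- Ccr7- cells, with Mx1 at 71.6%, Ifit3 at 60.6%, Ifi27l2a at 18.8% and Irf9 at 10.5%.

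**Figure D5:**
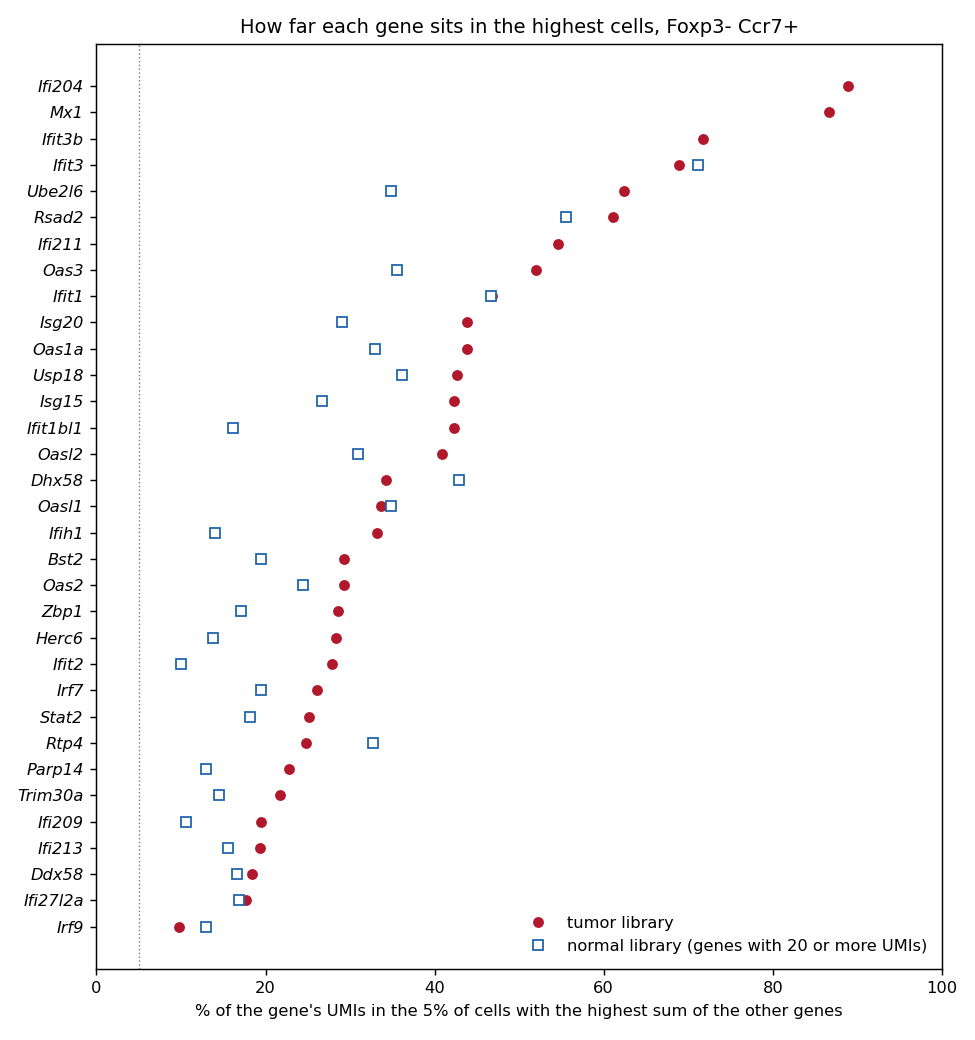
Percent of each member's UMIs found in the 5% of Foxp3- Ccr7+ cells with the highest sum of the other members. Red points are tumor, for all members. Open blue squares are normal, for members with at least 20 normal UMIs. The dotted line at 5% is an even spread. Mx1, with 90 tumor UMIs, lies at 86.7%, below only Ifi204, which has 9. Irf9 is near the line at 9.80%.

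Shares of cells with a UMI moved with these patterns. After thinning, Ifit3 was found in 5.82% of tumor and 0.853% of normal Foxp3- Ccr7+ cells, and in 13.5% and 1.27% of Foxp3- Ccr7- cells. Ifit1 was found in 9.46% and 2.40% of Foxp3- Ccr7+ cells (13.9% and 3.60% unthinned), in 18.6% and 2.71% of Foxp3- Ccr7- cells, in 18.5% and 3.05% of Foxp3+ Ccr7+ cells and in 22.2% and 3.45% of Foxp3+ Ccr7- cells. Isg15 was found in 16.6% and 9.19% of Foxp3- Ccr7+ cells (23.9% and 13.3% unthinned). Ifi27l2a was in most cells of either tissue, 75.3% and 63.2% of Foxp3- Ccr7+ cells, so its difference lay mainly in the number of UMIs per cell. The sort leaves no other cell type in which these genes should be missing, so a share from free RNA was not measured.

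A cell was counted as high when its thinned sum reached 22 UMIs, the smallest sum that at most 1% of normal cells reach. The class is a range of a score and not a cell type, and 220 tumor and 33 normal cells lay within 2 UMIs of the limit. High cells were 237 of 4675 tumor Foxp3- Ccr7+ cells, 5.07% [4.46 to 5.74], against 43 of 5628 normal, 0.764% [0.554 to 1.03]. They were 18.5% of tumor and 2.17% of normal Foxp3- Ccr7- cells, and 24.4% and 1.83% of Foxp3+ Ccr7+ cells. Foxp3+ Ccr7- cells had 269 of 689 high in tumor, 39.0% [35.4 to 42.8], and 5 of 29 in normal, 17.2% [5.85 to 35.8]. High cells held 28.3% of the member UMIs of tumor Foxp3- Ccr7+ cells and 63.0% of those of tumor Foxp3- Ccr7- cells.

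With the high cells of both libraries left out, 28 of the 32 members that could be compared in Foxp3- cells still had a tumor to normal ratio of at least 1.5, against 8.62% of all genes. The median was 1.82, beside 1.01 over all genes, and the lowest was Ifi209 at 0.883. In Foxp3+ cells 21 of 26 did, against 27% of all genes, with a median of 2.20 beside 1.17, and the lowest was again Ifi209, at 0.760. The limit that defines a high cell removes cells by their members, so these ratios are lower by construction where high cells are more frequent.

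The 420 high cells among tumor Foxp3- cells were deeper than the other 5243 (median 4470 and 4163 UMIs). Of the 420, 183 were Ccr7-, as were 805 of the others, so the pooled sets differ in Ccr7 makeup. Depth was 4708 and 3884 UMIs without Ccr7, and 4393 and 4217 with it. Since the member sum chose them, their member levels are given as a description. Mx1 was 98.3-fold, Ifit3 43.7-fold, Ifit1 17.2-fold and Ifi27l2a 6.00-fold higher in them, and Irf9 1.93-fold. Ifi27l2a took 37.0% of the member sum in high cells and 48.7% in the rest, while Isg15 took 7.95% and 3.58% and Ifit3 4.19% and 0.685%. Naive markers summed to 2442 CPM in high and 3916 CPM in other cells, T cell markers to 3887 and 3261 CPM, and Treg markers other than Foxp3 to 996 and 331 CPM. Without Ccr7 the naive sums were 908 and 2249 CPM and the Treg sums 1348 and 684 CPM. With Ccr7 the naive sums were 3649 and 4197 CPM and the Treg sums 720 and 271 CPM. Plasmacytoid dendritic cell markers, a list without the member Bst2, summed to 45.0 and 11.1 CPM with Siglech and Cox6a2 at 0, and myeloid markers to 90.4 and 69.8 CPM. Most of the first sum was Runx2, at 42.1 and 7.53 CPM, and most of the second was Cst3, at 86.5 and 64.2 CPM. The part of these 2 lists in the result was not tested.

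Genes other than the members were taken by rank as the 10 with the largest ratio of high over other tumor Foxp3- cells. Cells with and without Ccr7 were pooled for this, so the part of Ccr7 makeup in these ratios was not tested. These were Ifitm3, Cxcl10, Ly6c2, Ms4a4c, Phf11a, Gm47242, Cmpk2, Serpina3g, Tor3a and Gzmb. Ifitm3, which blocks viral entry, was at 365 CPM in high and 8.83 CPM in other cells, a ratio of 41.3 [35.3 to 48.4]. Cxcl10, a chemokine that interferons induce, had a ratio of 38.5, Ly6c2 22.4 and the cytotoxic protease Gzmb 15.3. Each was found in a minority of high cells. Ifitm3 was in 27.1% of high and 2.21% of other cells, and Cxcl10 in 25.95% and 2.19%. Ly6c2 was in 14.8% and 1.45%, and Gzmb in 12.4% and 1.01%.

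Clones, that is, cells sharing a paired T cell receptor, were counted among high and other cells, with clone size taken over all kept cells of the library. Of tumor Foxp3- cells with a paired receptor, 40 of 348 high cells (11.5% [8.34 to 15.3]) and 56 of 4301 other cells (1.30% [0.985 to 1.69]) were in clones of at least 2 cells. The shares were 21.7% and 6.73% without Ccr7, and 3.57% and 0.329% with it. Among tumor Foxp3+ cells they were 31.0% and 31.5%, with 33.6% and 41.1% without Ccr7 and 23.0% and 16.8% with it. In the normal library 2 of 44 high Foxp3- cells (4.55% [0.555 to 15.5]) and 103 of 4899 others (2.10%) were in clones. Without Ccr7 it was 2 of 11 high cells (18.2%) and 76 of 435 others (17.5%), and with Ccr7 0 of 33 and 27 of 4464. The 348 high Foxp3- cells carried 338 distinct receptors, so few of them were clone mates of each other. Clones with at least 2 tumor Foxp3- cells held 77 such cells, of which 34 were high (44.2%). Taking each high cell in turn and counting its Foxp3- clone mates, 28 of 58 were high (48.3%). A mate counts there once for each high partner, so larger clones weigh more and the 2 shares are not the same measure.

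Transcripts of the type I and III interferons looked for were almost absent from these cells. No UMI of Ifna1, Ifna2, Ifna4, Ifna5, Ifna11, Ifna13, Ifne, Ifnk, Ifnl2 or Ifnl3 was found in either library, and 1 of Ifnb1 was found in tumor. Other Ifna genes were not looked at. A count of 0 allows up to 0.0940 CPM over all tumor cells and 0.107 CPM over all normal cells. Ifng, the type II interferon, was the 1 ligand of 12 that could be compared, and its direction differed between groups. It was at 30.5 CPM in tumor and 134 CPM in normal Foxp3- Ccr7- cells, a ratio of 0.227 [0.184 to 0.278], and its ratio was 0.881 in Foxp3- Ccr7+ cells. Among tumor Foxp3- cells Ifng was at 41.6 CPM in high and 5.11 CPM in other cells, a ratio of 8.14 [6.09 to 10.8]. Foxp3+ Ccr7+ cells held 21 tumor UMIs and no normal UMI of Ifng, at least 2.21-fold higher in tumor, and Foxp3+ Ccr7- cells held 23 and none, too few to compare. Of 13 receptor and signalling genes compared among Foxp3- cells, 2 were higher, against 10.8% of all genes. These were the feedback inhibitors Socs3 (249 and 73.8 CPM, a ratio of 3.37 [3.21 to 3.55]) and Socs1 (140 and 51.7 CPM, a ratio of 2.71 [2.55 to 2.88]).

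By group, 2 of 13 receptor and signalling genes were higher in Foxp3- Ccr7+ cells, against 9.1% of all genes, and 3 of 13 in Foxp3- Ccr7- cells, against 11%. In Foxp3+ Ccr7+ cells 6 of 13 were higher, against 25.4% of all genes, and 2 lower, against 8.37%. Of 10 genes in Foxp3+ Ccr7- cells 4 were higher, against 25%, and 3 lower, against 11.1%. The smallest ratios among Foxp3- cells were those of Irf3, at 0.863, and of the receptor chain Ifnar1, at 103 and 139 CPM, 0.743 [0.707 to 0.781]. A further list of 41 interferon-induced genes outside the 33 gave 25 of 39 higher among Foxp3- cells, against 10.8% of all genes. By group, 19 of 39 were higher in Foxp3- Ccr7+ cells (9.1% of all genes), 30 of 39 in Foxp3- Ccr7- (11%), 27 of 37 in Foxp3+ Ccr7+ (25.4%) and 19 of 29 in Foxp3+ Ccr7- cells (25%). The largest ratios among Foxp3- cells were those of Phf11d (50 and 5 UMIs, 10.6), Ifi44 (4.49) and the nucleotide kinase Cmpk2 (4.16), and the smallest those of Trim25 (0.992) and Shisa5 (0.960).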

How the data were processed

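The deposited gene expression values are UMI counts per gene and cell barcode. Per the file headers they were made with Cell Ranger 3.1.0 and per the submitters' processing notes on mm10. The receptor tables deposited with them list contigs per barcode with UMI counts per contig. Barcodes with under 500 genes, or at or above 10% mitochondrial UMIs, were dropped (120 tumor, 61 normal), as were likely doublets with over 2 productive alpha chains or over 1 beta chain (533 and 602). Counts were summed per library and group and given as CPM with exact Poisson intervals. Ratios have exact conditional intervals and shares Clopper-Pearson intervals, all at 95%. A sum of 0 was set to 3 counts. For sums per cell, UMIs were drawn down to 2417 in every cell, the 10th percentile in the library of lower depth, with a fixed random seed. The intervals were tested on simulated data. Gene names matched RefSeq for 30934 of 31053 identifiers. RefSeq's promoter windows are of GRCm38.p6. Pathway genes named are the 3 largest and 2 smallest ratios among Foxp3- cells (1 of these and 1 alternative grouping of cells are not reported here), and other genes in high cells the 10 largest ratios among genes with at least 100 UMIs there. The members and gene lists were chosen with earlier results of these data known. Python 3.11.15, numpy 2.4.6, scipy 1.17.1, pandas 2.3.3 and matplotlib 3.10.9 were used. Alternatives to the filters, scaling, thinning, groups and members summed are given in the closing section.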

Additional observations from a re-analysis of the deposited data

Results flagged for a closer look

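Ifi209 went in opposite directions between groups of cells in the same comparison of tissues. Its tumor to normal CPM ratio was 0.613 in Foxp3+ Ccr7- cells, and it was 1.32 in Foxp3+ Ccr7+ cells and 1.64 in Foxp3- Ccr7- cells. The difference between these ratios was not tested, since each tissue has 1 library. The first ratio rests on 31 normal cells.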

How the results depend on the processing

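Of the results run under the alternatives, the ratios of Ifi209 alone changed direction, both under 1.5-fold to begin with. Its ratio was 1.31 in Foxp3+ and 1.11 in Foxp3- cells, and 0.760 and 0.883 without high cells. No paired analysis was possible because each tissue has 1 library and no result comes from a test. Ratios of the mean sum per cell are given in the order Foxp3+ Ccr7-, Foxp3+ Ccr7+, Foxp3- Ccr7- and Foxp3- Ccr7+. They were 3.52, 4.08, 3.88 and 2.09 without the 3 members with most UMIs, and 1.96, 2.28, 2.13 and 1.59 when members with a UMI were counted. Without Ifi27l2a, an alternative chosen after seeing the data, they were 3.17, 4.03, 3.45 and 2.08. With groups read from thinned counts, also chosen after seeing the data, they were 2.83, 2.99, 2.84 and 1.97. Foxp3 at 2 or more UMIs gave 2.49 in Foxp3+ Ccr7- cells. In Foxp3- Ccr7- cells the stricter cell filter gave 3.26, thinning to the 25th percentile 3.24 and no thinning 3.25. Foxp3- Ccr7+ cells gave 1.88 at the 25th percentile and 1.99 without members that have near-identical copies.

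Without the 10% highest cells, the ratios without the 3 top members were 2.71, 3.73, 2.76 and 1.74. Foxp3+ Ccr7- cells gave 2.26 with no cell filter, 2.25 with Foxp3 at 2 or more UMIs, 2.39 without Ifi27l2a and 2.72 with groups from thinned counts. Foxp3+ Ccr7+ cells gave 2.18 counting members and 3.61 without Ifi27l2a. Foxp3- Ccr7- cells gave 1.95 counting members, 2.66 with no cell filter, 2.77 with the stricter one, 2.79 at the 25th percentile and 2.73 without thinning. Foxp3- Ccr7+ cells gave 1.5 counting members and 1.87 without near-identical copies.

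The count of members called higher in Foxp3+ Ccr7- cells was 8 without high cells, where 13 could be compared, against 23.7% of all genes. In Foxp3- Ccr7- cells it was 20 of 31 without high cells, against 9.79% of all genes. For these counts, leaving out high cells was added after seeing the data, as was filtering on the mean CPM. That filter called 18 of 20, 30 of 31, 33 of 33 and 31 of 33 members compared, in the order above. No share of all genes was taken under it. The share of high cells was 58.2% of tumor Foxp3+ and 17.3% of tumor Foxp3- cells with the limit set at 5% of normal cells, and 23.5% and 4.93% at 0.5%. Without the 3 top members it was 23.7% in Foxp3+ cells. With median of ratios scaling Ifi27l2a had ratios of 2.91 in Foxp3+ and 2.03 in Foxp3- cells, and single members moved in 51 cases when high cells were left out. The cause of these changes was not tested. The number of normal Foxp3+ Ccr7- cells, 31, limits every value of that group.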
